A study of Mus musculus with 22 samples.

Results

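The comparison described here is the effect of LPS on open chromatin in macrophages that all carried lactic acid. It was chosen by group label: the 3 samples with LPS and lactic acid (LPS+LA) were set against the 3 with lactic acid and no LPS (LA), 6 of the 12 ATAC-seq samples and of 22 samples in all. The cells were bone marrow-derived macrophages of C57/BL6 mice, grown for 7 days in medium conditioned by L929 cells, which supplies macrophage growth factor. LPS was used at 100 ng/ml for 3 hours, and L-(+)-lactic acid at 10 mM where it was given with LPS; the labels do not state its dose where it was given alone. The other ATAC-seq groups were LPS without acid and an untreated control, with 3 samples each. The RNA-seq libraries, 2 for each of 5 groups, comprised the same 4 conditions and LPS with hydrochloric acid. Nothing in the labels says that replicates came from separate cultures or mice, so the spread between them, and every p-value built on it, may be technical. All 6 samples carried lane 6 in their headers and the LPS and control samples lane 5, so the LPS effect was read within a lane, while lane and lactic acid cannot be told apart between the LPS effects with and without acid.

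LPS, a component of the wall of gram-negative bacteria, is sensed by Toll-like receptor 4 on macrophages, which signals through MyD88 to NF-kB and AP-1 and through TRIF to IRF3 and interferon beta. Interferon then acts on the same and neighbouring cells through its receptor, and enhancers around cytokine and antiviral genes open. ATAC-seq cuts accessible DNA with a transposase, and a peak is a stretch where cuts pile up. Lactic acid is released by glycolytic cells and accumulates at sites of inflammation.

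Sites were the merged peaks of all 12 samples. A site was counted as gained with LPS when all 3 LPS+LA samples and no LA sample had a peak there, and as lost in the reverse case. With 3 samples on each side an exact two-sided test cannot go below p = 0.10, so single sites were described and not tested. The promoter windows below, 250 bases before to 50 bases after a gene's start, were taken from RefSeq (GRCm38.p6, the mm10 assembly) and are shown because a called site overlapped each of them. They are written 5′ to 3′ on the gene's strand, with matches to 3 motifs in capitals: an NF-kB motif, the AP-1 motif TGANTCA and the interferon-stimulated response element (ISRE), searched on both strands. The first 5 had a gained site and the last, Slco2b1, a lost one.
Il1a, chr2:129309923-129310222, minus strand: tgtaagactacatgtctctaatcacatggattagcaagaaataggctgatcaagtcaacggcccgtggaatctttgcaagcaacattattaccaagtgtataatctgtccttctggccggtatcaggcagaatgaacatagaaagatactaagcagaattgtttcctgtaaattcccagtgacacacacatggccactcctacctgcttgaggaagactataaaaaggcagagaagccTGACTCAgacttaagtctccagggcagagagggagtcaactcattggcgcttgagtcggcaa
Il1b, chr2:129371090-129371389, minus strand: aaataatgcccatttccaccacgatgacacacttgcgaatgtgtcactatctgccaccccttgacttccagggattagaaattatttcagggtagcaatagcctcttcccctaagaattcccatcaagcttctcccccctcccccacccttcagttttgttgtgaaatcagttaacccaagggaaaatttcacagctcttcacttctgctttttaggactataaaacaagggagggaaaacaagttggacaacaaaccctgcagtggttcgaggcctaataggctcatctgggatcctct
Ifitm3, chr7:141010695-141010994, minus strand: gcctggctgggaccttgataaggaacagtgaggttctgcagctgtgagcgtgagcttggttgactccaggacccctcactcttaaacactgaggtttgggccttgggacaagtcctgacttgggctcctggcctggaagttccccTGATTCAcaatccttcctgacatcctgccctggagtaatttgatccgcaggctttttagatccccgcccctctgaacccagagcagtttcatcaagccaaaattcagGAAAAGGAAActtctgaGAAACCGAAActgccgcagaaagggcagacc
Tgtp2, chr11:49064163-49064462, minus strand: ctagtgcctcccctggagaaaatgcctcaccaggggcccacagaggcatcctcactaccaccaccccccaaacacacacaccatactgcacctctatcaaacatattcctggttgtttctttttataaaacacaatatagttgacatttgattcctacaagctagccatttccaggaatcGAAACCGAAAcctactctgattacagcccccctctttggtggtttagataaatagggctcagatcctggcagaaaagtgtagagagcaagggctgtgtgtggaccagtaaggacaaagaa
Ccr3, chr9:124021721-124022020, plus strand: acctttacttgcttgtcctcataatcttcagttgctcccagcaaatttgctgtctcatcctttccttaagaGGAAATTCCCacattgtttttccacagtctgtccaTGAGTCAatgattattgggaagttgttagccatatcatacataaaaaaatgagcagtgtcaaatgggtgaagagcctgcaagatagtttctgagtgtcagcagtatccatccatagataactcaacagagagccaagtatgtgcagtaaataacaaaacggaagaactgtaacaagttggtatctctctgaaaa
Slco2b1, chr7:99706793-99707092, minus strand: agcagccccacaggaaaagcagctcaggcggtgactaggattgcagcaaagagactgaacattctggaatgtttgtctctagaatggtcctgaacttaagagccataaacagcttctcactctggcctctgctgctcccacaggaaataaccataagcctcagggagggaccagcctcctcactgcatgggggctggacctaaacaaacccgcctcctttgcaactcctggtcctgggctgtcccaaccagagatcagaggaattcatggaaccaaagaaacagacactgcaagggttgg

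LPS-treated samples held more peaks. The 3 LPS+LA samples had 85571, 99435 and 99416 peaks and the 3 LA samples 76680, 80820 and 78940, so the groups did not overlap (94807 ± 7999 against 78813 ± 2073, SD, n = 3; exact two-sided permutation p = 0.10, the smallest possible). LPS+LA replicate 1 stood apart from its group, with the fewest peaks and a median peak width of 327 bp against 371 and 372 bp. Without acid, LPS samples had 100667, 94412 and 88807 peaks and controls 86537, 80386 and 86566. The LPS difference with acid exceeded that without it by 5862 peaks. An exact test that permuted the acid labels among samples with LPS and among samples without LPS did not separate this from 0 (two-sided p = 0.360). The macrophage label was checked at promoters: 13 of 17 macrophage genes with a window had a peak in all 6 samples, among them Lyz2, Cd68 and Itgam, against 0 of 7 T-cell and 0 of 6 erythroid markers. Markers of B cells (2 of 5), NK cells (1 of 6), neutrophils (2 of 9), mast cells (1 of 5), stroma (1 of 4) and neurons (3 of 6) had such peaks at fewer windows. Over all 32851 promoter windows, 13092 lay at a site with a peak in all 6, and the shares for B cells and neurons were no lower. Among the macrophage genes Cd36, Ccr2 and Apoe had no promoter peak in these samples, and Mrc1 had one in 2 LA samples alone.

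Of 110053 sites with a peak in at least 1 of the 6 samples, 61970 (56.3%) had one in all 6. Gained sites numbered 7681, which was 6.98% of these sites, and lost sites 618, which was 0.562%, a ratio of 12.4. The imbalance depended on how many peaks each sample held. With the 60000 highest-scoring peaks of each sample, 3672 sites were gained and 2211 lost, and 1849 of the 7681 gained sites (24.1%) remained among the gained ones. With 76680 peaks each, the number in the smallest sample, the counts were 4465 and 2342, and 4185 of the 7681 remained. That number was chosen after seeing the data. Of the sites lost with 60000 and 76680 peaks, only 4.93% and 22.8% were among the 618. Most of them were thus not lost with all deposited peaks, which holds for the 60000-peak lost sites counted below too. Leaving out LPS+LA replicate 1 raised the gained sites to 12867 and gave 695 lost. Between samples, the mean shared fraction of sites was 0.828 within groups and 0.725 between them (exact one-sided permutation p = 0.10, the smallest of 10 arrangements).

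**Figure D1:**
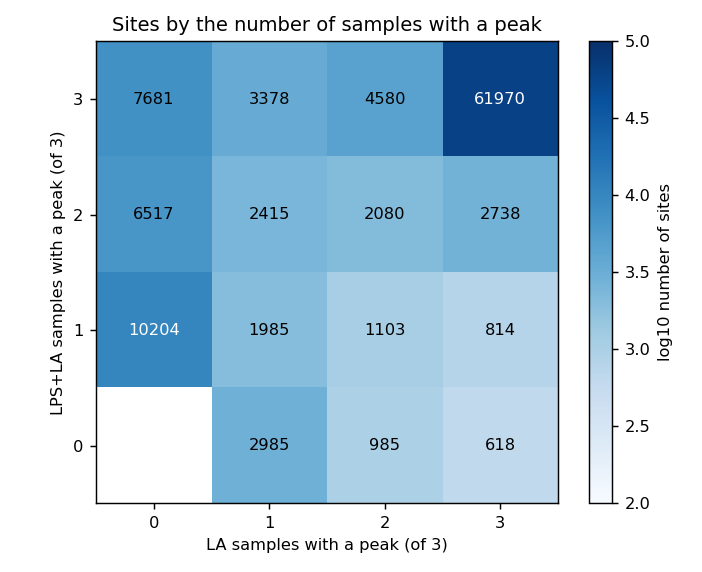
Number of sites by how many of the 3 LPS+LA samples (vertical axis) and of the 3 LA samples (horizontal axis) had a peak, with colour on a log10 scale. The corner with a peak in all 6 holds 61970 sites, the gained corner 7681 and the lost corner 618.

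**Figure D2:**
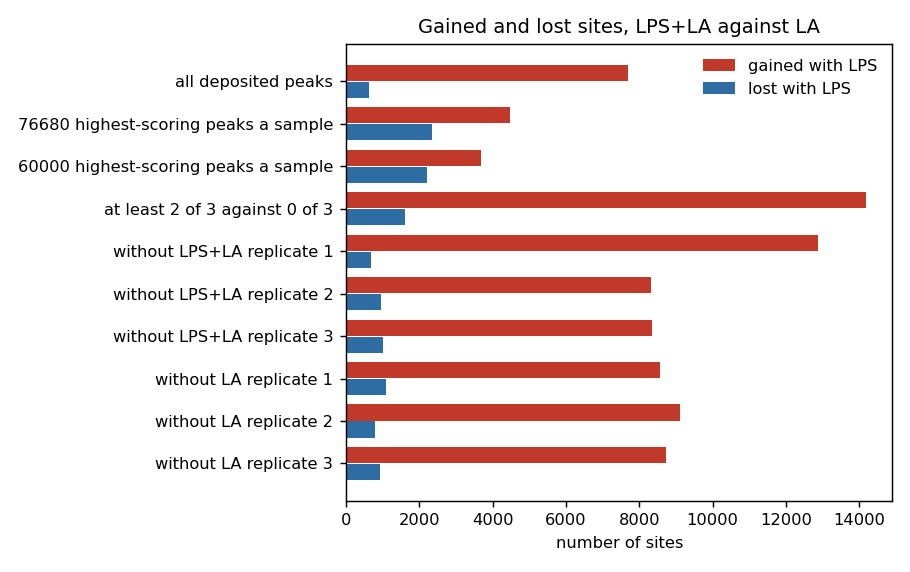
Gained (red) and lost (blue) sites with all deposited peaks, with equal numbers of peaks in each sample, with the looser rule of at least 2 of 3 samples, and without each replicate. Gained sites exceed lost ones in every setting drawn, by the least with 60000 or 76680 peaks a sample.

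Gained sites were mostly distant from promoters and low in score. Only 108 of the 7681 (1.41%) overlapped a promoter window, compared with 13 of 618 lost sites (2.10%) and 16.2% of the sites with a peak in all 6. Their median distance to the nearest start was 21.3 kb, against 15.3 kb for lost sites and 14.2 kb for sites in all 6, and 56.7% lay within the bounds of a gene. Their median width was 381 bp, compared with 585 bp for sites in all 6. The authors' peak score ranks peaks within a sample, and the median gained peak stood at the 22.3rd, 33.3rd and 32.9th percentile of the LPS+LA samples. Lost peaks stood at the 18.6th, 21.3rd and 20.2nd percentile of the LA samples. When only peaks at or above their sample's median score were used, 4597 sites were gained, of which 653 (14.2%) were among the 7681. Of the sites gained with 60000 and 76680 peaks a sample, 50.4% and 93.7% were among them. The share of peaks at promoters was 11.2% ± 0.716 with LPS and 13.1% ± 0.267 without (SD, n = 3; exact permutation p = 0.10), while the number of promoter peaks was 10587 ± 251 and 10286 ± 62.3 (exact permutation p = 0.200).

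The 10 gained sites with the highest scores each had a peak in all 3 LPS samples as well. The leading one, at chr1:80614653-80615200 inside Dock10, a guanine nucleotide exchange factor of the DOCK family, had scores of 152, 270 and 214 in the LPS+LA samples and no peak in any LA sample. It had a peak in all 3 LPS and all 3 control samples, so among the 12 samples the 3 LA samples were the ones without it. The control peaks scored 8.59, 5.29 and 13.7, below the median scores of their samples (32.1, 29.2 and 31.7). The LPS peaks scored 381, 331 and 285, above the medians of theirs (30.6, 28.3 and 25.8). Others lay inside Slc15a3, a lysosomal peptide and histidine transporter, inside Fmnl2, a formin that elongates actin filaments, and inside Arhgef3, a guanine nucleotide exchange factor. These 3 sites had a peak in all 3 LPS samples and in no control sample. RNA is given in CPM, counts scaled to the library total as adjusted by TMM, the edgeR normalisation used here. The RNA of Arhgef3 averaged 35.4 CPM with LA and 140 with LPS+LA, and that of Slc15a3 302 and 504. Both genes rose (edgeR adjusted p = 2.53e-15 and 1.45e-09). Not every gene beside a strong gained site moved: Spidr, which acts in DNA repair, averaged 23.1 and 24.7 CPM (log2 difference 0.10, edgeR adjusted p = 0.676). The strongest lost sites ranked lower within their samples, with a lowest percentile of 72.5 at most, against 85.3 or more for the 10 gained sites. That in Spred2, an inhibitor of Ras signalling to ERK, scored 35.4, 52.5 and 44.5 in the LA samples, and had a peak in 3 control and 0 LPS samples. The RNA of Spred2 averaged 74.1 and 71.6 CPM (edgeR adjusted p = 0.713).

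At promoters, the interleukin-1 genes carried gained sites. Il1a and Il1b encode the interleukin-1 cytokines that start fever and local inflammation. The site over the Il1a start scored 17.9, 15.7 and 11.5 in the LPS+LA samples, and its window, printed above, held 1 AP-1 match. Il1a RNA was 0.835 and 1.25 CPM with LA and 81.7 and 94.7 with LPS+LA (log2 difference 6.40 ± 0.17 SE, edgeR adjusted p = 1.08e-16). The Il1b site scored 3.87, 28.1 and 14.5, the first of these in LPS+LA replicate 1, and none of the motifs searched matched its window. Il1b RNA was 5.93 and 8.79 CPM with LA and 478 and 525 with LPS+LA (log2 difference 6.09 ± 0.14 SE, edgeR adjusted p = 9.47e-14). Neither promoter had a peak in a control sample, and 3 LPS samples had one at Il1a and 2 at Il1b. A second gained site lay upstream of each gene, 1.77 kb before the Il1a start with scores of 30.2, 72.8 and 67.9, and 39.4 kb before the Il1b start with scores of 55.7, 88.3 and 74.0. A site lost with LPS also lay 4.14 kb before the Il1a start.

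The antiviral genes Ifitm3 and Tgtp2 showed another pattern of peak calls. Ifitm3 encodes a membrane protein that blocks virus entry, and Tgtp2 an interferon-inducible GTPase that attacks the vacuoles of intracellular parasites. The Ifitm3 site scored 110, 170 and 159 with LPS+LA, and the window held 1 AP-1 and 2 ISRE matches. The Tgtp2 site scored 40.5, 78.5 and 67.1, and the window held 1 ISRE match. Both sites had peaks in all 3 LPS and all 3 control samples, and in no LA sample. At Tgtp2 the control peaks had scores of 11.9, 5.92 and 8.91, and the peak in each LPS sample 88.9 or more. Within their own samples these control peaks lay below the median score, and the LPS peaks above it. Ifitm3 RNA averaged 291 ± 17.0 CPM with LA and 379 ± 54.3 with LPS+LA (SD, n = 2), and that of Tgtp2 3.95 ± 0.984 and 33.6 ± 9.95; both rose (edgeR adjusted p = 0.00183 and 2.38e-07). The Ifitm3 call was lost with total-count scaling (adjusted p = 0.127) and without LPS+LA library 2 (adjusted p = 0.0785). At Ccr3, an eotaxin receptor, the window held an NF-kB and an AP-1 match, and no LPS or control sample had a peak. Its RNA averaged 1.46 CPM with LA and 4.81 with LPS+LA (edgeR adjusted p = 1.19e-05). The lost site over Slco2b1, an organic anion transporter, scored 10.7, 6.42 and 7.09 with LA and had peaks in 3 control and 0 LPS samples. Slco2b1 RNA fell from 26.4 ± 2.55 to 17.2 ± 1.17 CPM (SD, n = 2; edgeR adjusted p = 4.50e-04). A lost site over Src, a tyrosine kinase, went with RNA that rose from 2.52 to 22.1 CPM (edgeR adjusted p = 3.34e-13).

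Among the 119 promoter windows that a gained site overlapped, 24.4% held the AP-1 motif, against 7.81% of all 32851 windows. The NF-kB motif was in 13.4% against 4.51%, and the ISRE in 10.9% against 3.44%. The cAMP response element TGACGTCA, which CREB binds, was in 0.840% of them and in 1.79% of all windows, the PU.1 motif GAGGAAGT in 3.36% and 3.20%, and the CTCF motif in 0.840% and 2.50%. The C/EBP motif TTGCGCAA was in 0 of the 119 and 0.183% of all. These motifs were also searched on both strands, and an AP-1 or ISRE match may overlap another motif. The windows differed in base composition, at 49.5% G and C for those with gained sites and 53.8% for all, and some start sites of one gene share bases. A match describes the letters and shows no binding.

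RNA from the same 2 conditions was measured in separate libraries. Of 12213 genes tested with edgeR, 1941 (15.9%) rose and 1785 (14.6%) fell at an adjusted p under 0.05 (2 libraries a group). In bulk samples, fewer cells of a type and less RNA per cell cannot be told apart, and the same holds for the share of cells with an open site. With scaling by total counts in place of TMM, 1294 rose and 4260 fell, and the median of all genes shifted to -0.22 on the log2 scale.

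The share of genes that rose was larger near gained sites. Among 12165 tested genes with a position, 15.9% rose and 14.7% fell. Of the 6401 with at least 1 gained site within 50 kb, 21.4% rose (95% Wilson interval 20.4 to 22.4) and 13.2% fell. Of the 5432 with no called site, 9.70% rose (8.94 to 10.5) and 15.9% fell. The share that rose was 15.7% with 1 gained site, 22.0% with 2, 32.4% with 3, 50.5% with 4 or 5 and 42.6% with 6 or more. The genes with 6 or more were long, with a median of 199 kb against 23.2 kb for all tested genes, and had 38 sites of any kind within reach against 14; the part of length in the shares was not tested. Of the 961 genes with at least 1 lost site, 20.9% rose (18.5 to 23.6) and 18.2% fell (15.9 to 20.8), and many of these had gained sites as well. Of the 332 genes with lost sites alone, 10.2% rose (7.42 to 14.0) and 21.4% fell (17.3 to 26.1). At a gained promoter window, 22 of 38 tested genes rose (57.9%) and 2 fell. Genes that share a site are not independent, and the intervals cover counting error only. With the 60000-peak sites, 25.8% of the genes near gained sites rose and 11.6% fell, and near lost sites 16.7% rose and 18.0% fell.

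**Figure D3:**
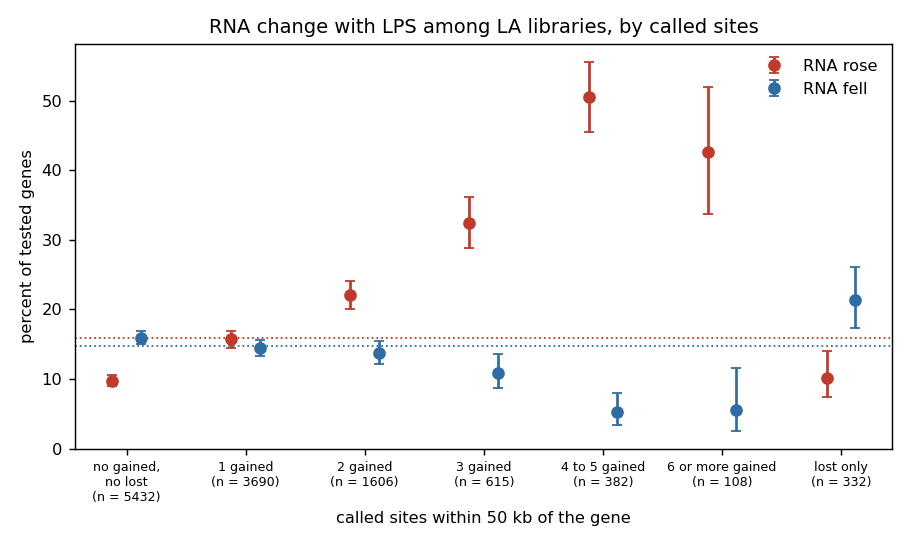
Percent of tested genes whose RNA rose (red) or fell (blue) with LPS among lactic acid libraries, by the called sites within 50 kb of the gene, with 95% Wilson intervals; dotted lines give the shares over all tested genes. The share that rose goes from 9.70% with no called site to 50.5% with 4 or 5 gained sites.

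With all deposited peaks, interferon response genes had the highest share with a gained site among the gene lists. Of 21900 protein-coding genes, 39.3% had a gained site within 50 kb and 5.57% a lost one; among genes tested for RNA, 52.6% had a gained one. Of the 37 interferon response genes 36 had a gained site (97.3%), with 121 gene-site pairs in all, and 2 had a lost one. All 35 with tested RNA rose, with a median log2 difference of 2.39 against -0.0140 over all tested genes. The 1 gene without a gained site was Tap1, a peptide transporter for antigen presentation, named after its values were seen. With 60000 peaks a sample, 27 of the 37 had a gained site and 4 a lost one, against 23.2% and 17.3% of all protein-coding genes; chemokines then stood higher, at 15 of 20. Chemokines and cytokines also had larger median log2 differences in RNA, 4.61 and 4.26. Peaks within 50 kb of these genes made up 4.95, 4.85 and 4.95 of every 1000 peaks in the LPS+LA samples and 4.15, 4.11 and 4.08 in the LA samples. The groups did not overlap on this scale, which takes out the number of peaks. Without acid the values were 4.79, 5.13 and 5.08 with LPS and 4.23, 4.27 and 4.34 in controls. Lack of overlap with acid was not particular to these genes, as most of the 21 lists showed it, some higher with LPS and some lower. Stromal markers had 0.269, 0.221 and 0.241 with LPS+LA and 0.196, 0.173 and 0.165 with LA. T-cell markers had 0.841, 0.835 and 0.855 with LPS+LA and 0.939, 0.891 and 0.988 with LA.

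Rsad2, an antiviral enzyme also called viperin, had 6 gained sites between 55.2 kb after and 20.0 kb before its start. The LPS+LA samples had 15, 17 and 17 peaks within 50 kb of it and the LA samples 7, 10 and 7. The sites 4.52 and 8.06 kb before the start had peaks in 0 and 2 of the 3 LPS samples, and in no control sample. Rsad2 RNA was 14.1 and 21.7 CPM with LA and 1862 and 1977 with LPS+LA (log2 difference 6.74 ± 0.19 SE, edgeR adjusted p = 2.12e-08). Irf1, a transcription factor of the interferon response, had 4 gained sites between 9.96 and 50.9 kb after its start. Its peaks numbered 19, 22 and 19 with LPS+LA and 13, 14 and 14 with LA. Irf1 RNA was 38.3 and 38 CPM with LA and 377 and 373 with LPS+LA (log2 difference 3.30 ± 0.07 SE, edgeR adjusted p = 6.81e-21). Trim30a, which restrains NF-kB signalling, had 7 gained sites, and its RNA rose by 0.64 on the log2 scale (edgeR adjusted p = 4.18e-05). Mx2, an antiviral GTPase, had 8 and was not among the genes tested for RNA.

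Chemokines, which draw leukocytes, had gained sites at 16 of 20 genes and lost sites at 4; 15 of 19 tested rose. With 60000 peaks a sample, 15 had a gained site and 10 a lost one. Peaks near them made up 2.10, 1.92 and 1.92 of every 1000 with LPS+LA and 1.90, 1.88 and 1.91 with LA. Ccl5, which attracts T cells and monocytes, had 6 gained sites, and its strongest, inside the gene at chr11:83530284-83530898, scored 120, 217 and 192. Within 50 kb of Ccl5 the LPS+LA samples had 20, 20 and 21 peaks and the LA samples 12, 13 and 11. Ccl5 RNA was 2.02 and 4.33 CPM with LA and 776 and 769 with LPS+LA (log2 difference 7.93 ± 0.23 SE, edgeR adjusted p = 3.12e-08). Ccl3, Ccl4 and Ccl9, on the same chromosome, had 3, 3 and 4 gained sites and 1 lost site each, and all 3 rose. These sites are largely shared: the lost site is the same one for all 3 genes, Ccl3 and Ccl4 have 2 gained sites in common, and of the 4 at Ccl9 3 are also sites of Ccl5, its strongest included, and 1 is a site of Ccl3. Cxcl10, an interferon-induced attractant of T cells, had 2, both downstream of its start, and its RNA was 35.3 and 55.7 CPM with LA and 6809 and 6557 with LPS+LA (edgeR adjusted p = 9.98e-06).

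Of 22 cytokine genes 15 had a gained site (68.2%) and 1 a lost one, and 19 of 21 tested rose and 1 fell. With 60000 peaks a sample, 16 had a gained site and 8 a lost one. Peaks near them made up 3.44, 3.21 and 3.13 of every 1000 with LPS+LA and 3.14, 3.11 and 3.27 with LA, so the groups overlapped. Il10, which encodes an anti-inflammatory cytokine, led with 6. Within 50 kb of it the LPS+LA samples had 20, 21 and 21 peaks and the LA samples 14, 12 and 13. Il10 RNA was 0.483 and 1.29 CPM with LA and 14.0 and 19.0 with LPS+LA (log2 difference 4.21 ± 0.30 SE, edgeR adjusted p = 1.18e-09). Of its 6 sites 5 had a peak in all 3 LPS samples, and none had one in a control sample. Il15, which sustains NK cells and memory T cells, and Tnfsf10, the death ligand TRAIL, had 3 each, and their RNA rose by 2.35 and 5.73 on the log2 scale (edgeR adjusted p = 2.24e-15 and 9.73e-17).

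The NF-kB subunits and regulators had gained sites at 26 of 32 (81.2%) and lost sites at 7, and 31 of 32 rose. With 60000 peaks a sample, 21 had a gained site and 14 a lost one. Peaks near them overlapped between groups, at 6.65, 6.26 and 6.34 of every 1000 with LPS+LA and 6.56, 6.46 and 6.52 with LA. Tnfaip3, the ubiquitin-editing enzyme A20 that ends NF-kB signalling, had 3 gained sites, each with peaks in all 3 LPS and no control samples. Its peaks numbered 19, 20 and 20 with LPS+LA and 16, 13 and 16 with LA, and its RNA was 39.0 and 38.9 CPM with LA and 873 and 1024 with LPS+LA (edgeR adjusted p = 1.98e-22). Birc3, a ubiquitin ligase of the TNF receptor complex, had 5, and Rel, an NF-kB subunit, 4; both rose. Antimicrobial effectors had gained sites at 21 of 25 genes (13 with 60000 peaks), with 21 of 25 rising and 1 falling. There Sod2, the mitochondrial superoxide dismutase, had 3 gained sites and RNA of 54.7 and 57.1 CPM with LA and 244 and 242 with LPS+LA (edgeR adjusted p = 3.75e-17). Antigen presentation and co-stimulation genes had them at 16 of 22 and lost sites at 6 (13 and 7 with 60000 peaks), and 17 of 21 tested rose. Among these the activation marker Cd69 had 4 and rose by 6.58 on the log2 scale (edgeR adjusted p = 3.42e-24).

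Several strongly induced genes had no gained site in the presence of acid with all deposited peaks. Tnf, Il6, Ccl2, Csf1, Ptgs2, Nfkbiz, Cd40 and Icam1 all rose in RNA and had 0 gained sites within 50 kb, and Icam1 had 1 lost site. With 60000 peaks a sample, Ccl2 had 2 gained sites and Nfkbiz and Cd40 1 each. They were among 30 genes set out for description, of which 17 had a gained site; of 29 tested, 22 rose and 5 fell. Csf1, a macrophage growth factor, had 0 gained sites here and 5 in LPS against control. Its peaks numbered 16 in every LPS+LA sample and 12, 15 and 12 with LA, compared with 20, 20 and 19 with LPS and 13, 14 and 14 in controls. Ptgs2, the inducible cyclooxygenase, had 0 and 4 gained sites in the comparisons with and without acid, with 5, 7 and 6 peaks in LPS+LA samples, 4 in every LA and control sample, and 10, 9 and 8 in LPS samples. Nfkbiz, a nuclear regulator that NF-kB induces, had 0 and 5, and Il6 0 and 3. The other 4 had 1 gained site each without acid, and Tnf also had 2 lost ones there. Around Il6 the LPS+LA samples had 6, 8 and 7 peaks and the LA samples 6, 7 and 7, so these overlapped, while LPS samples had 12, 14 and 12. Il6 RNA was 0 and 0.0446 CPM with LA and 9.63 and 8.32 with LPS+LA (edgeR adjusted p = 2.59e-14). Nos2, which makes nitric oxide, had 1 gained site with acid and 5 without. Whether the number of gained sites differed between the 2 comparisons at these genes was not tested, and lane and acid cannot be told apart there. In RNA, the LPS effect was smaller with acid for Csf1 by 3.41 and for Ptgs2 by 7.21 on the log2 scale (edgeR interaction adjusted p = 1.61e-16 and 4.29e-16). Over all genes this interaction was positive for 20.4% and negative for 23.9%.

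**Figure D4:**
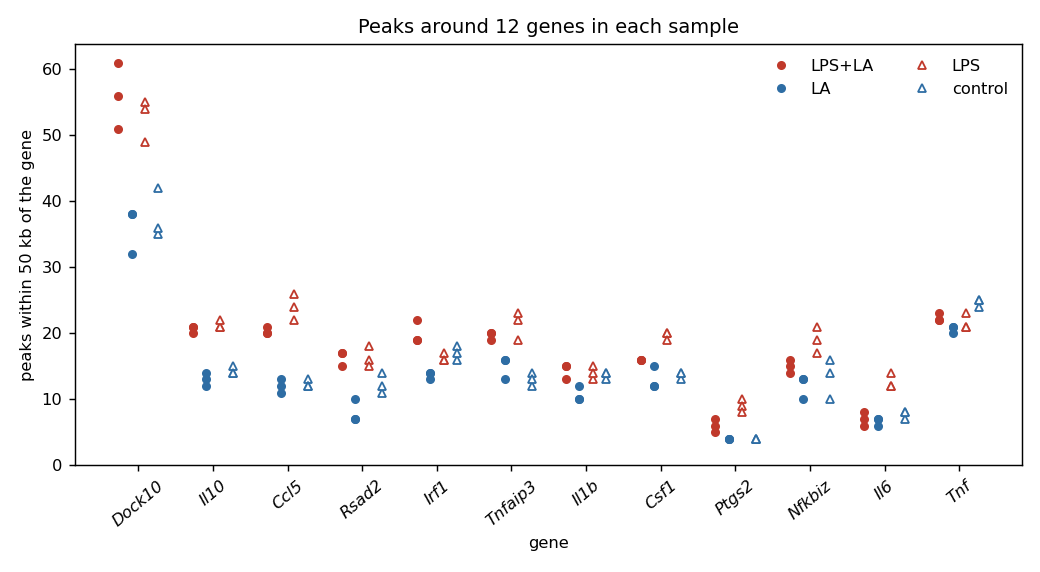
Peaks within 50 kb of 12 genes in each of the 12 samples, LPS+LA and LA as filled circles, LPS and control as open triangles, red with LPS and blue without. Around each gene drawn except Il6 every LPS+LA sample lies above every LA sample, and LPS+LA samples also held more peaks in all. Around Ccl5, Csf1, Ptgs2, Nfkbiz and Il6 the LPS samples lie above the LPS+LA samples.

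Immediate-early and AP-1 genes moved in both directions. Gained sites lay at 15 of 27 (55.6%, near the 52.6% of all genes tested for RNA) and lost sites at 9, and 11 rose and 8 fell, with a median log2 difference of 0.0749. With 60000 peaks a sample 4 of the 27 had a gained site and 13 a lost one. Peaks near them made up 4.62, 4.57 and 4.42 of every 1000 peaks with LPS+LA and 5.14, 4.91 and 5.07 with LA, without overlap, as in most lists. Atf3, a repressor that LPS induces, had 2 gained and 1 lost site and its RNA rose by 1.81 on the log2 scale (edgeR adjusted p = 1.73e-08). Fosb, an AP-1 subunit, had 0 and 1, and its RNA fell from 73.5 and 62.1 CPM to 22.1 and 21.4 (edgeR adjusted p = 2.25e-09). Targets of cAMP and CREB had gained sites at 13 of 20 genes and lost ones at 2; 5 of 18 tested rose and 8 fell. The phosphodiesterases Pde4d and Pde4b, which break down cAMP, had 7 and 6, out of 98 and 42 sites of any kind within 50 kb. Over all sites 6.98% were gained, so the count at Pde4d was near that share. With 60000 peaks a sample Pde4d had 3 gained and 4 lost sites, and Pde4b 2 and 0. Pde4b RNA rose by 2.48 on the log2 scale (edgeR adjusted p = 2.20e-17), and that of Pde4d was 4.39 and 4.02 CPM with LA and 3.32 and 3.37 with LPS+LA (adjusted p = 0.475).

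Macrophage identity genes had gained sites at 16 of 26 and lost ones at 5; 7 rose and 4 fell. Mertk, a receptor for engulfing dead cells, had 6 gained sites and 1 lost, and its RNA fell from 66.3 and 62.0 to 38.1 and 43.7 CPM (edgeR adjusted p = 8.76e-06). Spi1, which encodes the macrophage factor PU.1, had 3 gained sites, and 1 of them was lost with LPS without acid. Its RNA rose by 0.35 on the log2 scale (edgeR adjusted p = 6.60e-04; 0.106 with total-count scaling). TLR signalling genes had gained sites at 13 of 23, of which Tab2, an adaptor of the kinase TAK1, had 9. Glycolysis and lactate genes had them at 16 of 25 and, with 60000 peaks, at 3; Ldha, lactate dehydrogenase A, had 1, with RNA of 957 and 900 CPM with LA and 990 and 932 with LPS+LA (adjusted p = 0.652). Lipid and cholesterol genes had them at 12 of 18, and cell cycle genes at 12 of 24. Of all genes tested for RNA 52.6% had one, and the shares for cell cycle, TLR signalling (56.5%) and macrophage identity genes (61.5%) lay near it. Marker genes of other cells also had them, at 6 of 7 for NK cells, 7 of 9 for neutrophils, 6 of 9 for B cells, 5 of 7 for erythroid cells, 4 of 10 for T cells, 3 of 6 for mast cells, 2 of 7 for stroma and 1 of 8 for neurons. With 60000 peaks these were 1, 3, 4, 1, 1, 0, 2 and 3 in the same order.

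**Figure D5:**
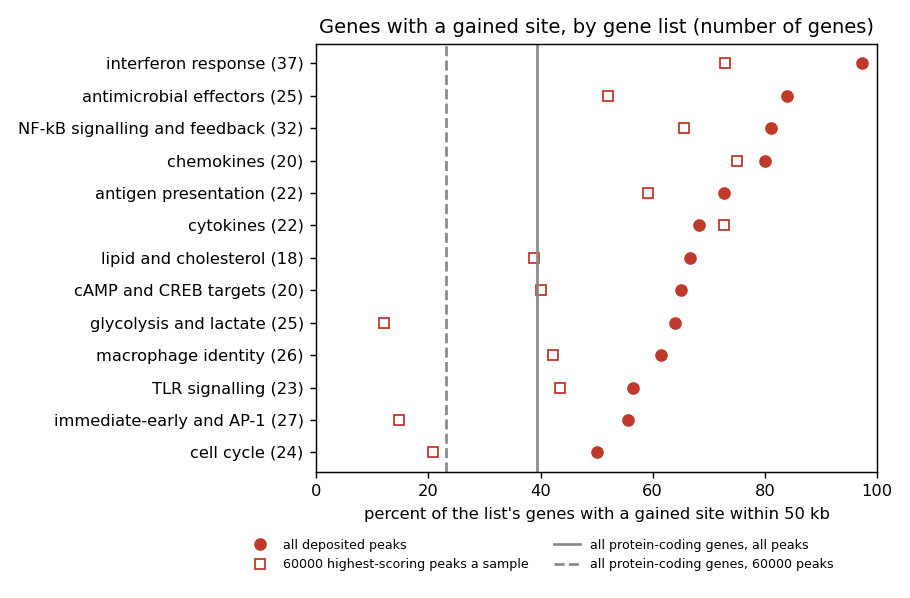
Percent of each list's genes with a gained site within 50 kb, with all deposited peaks (circles) and with 60000 peaks a sample (squares); lines give the same over all protein-coding genes, 39.3% (solid) and 23.2% (dashed). Interferon response genes lie highest with all peaks, at 97.3%, and glycolysis, immediate-early and cell cycle genes lie below the dashed line with 60000.

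The most gained sites lay at Dock10, Snd1 and Cdk14, with 13 each. Snd1 encodes a nuclease of RNA silencing complexes and Cdk14 a cyclin-dependent kinase. Around Dock10 the LPS+LA samples had 51, 61 and 56 peaks and the LA samples 32, 38 and 38. Its RNA was 117 and 122 CPM with LA and 185 and 198 with LPS+LA (log2 difference 0.68 ± 0.07 SE, edgeR adjusted p = 2.04e-08). Snd1 and Cdk14 did not pass the test (adjusted p = 0.123 and 0.439). Tbc1d1, a Rab GTPase regulator, and Akap13, an anchor for protein kinase A, had 10 and 9, and rose by 1.19 and 0.90 (edgeR adjusted p = 8.27e-12 and 1.47e-10). No gene had more than 3 lost sites. Among those with 3 was Trps1, a GATA-type repressor, which also had 3 gained sites and whose RNA rose by 1.59 (edgeR adjusted p = 3.67e-11). Spred2 had 3 lost sites too, as had a cluster of neighbours on chromosome 17, Clic1, Msh5, Vwa7, Vars and D17H6S56E-5, which share the same sites.

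Sites were then compared with LPS against control, which uses none of these 6 samples. There 10579 sites (9.05%) were gained and 3125 (2.67%) lost, a ratio of 3.39. The 2 gained sets shared 3453 sites, 45.0% of those with acid and 32.6% of those without. The lost sets shared 223, 36.1% of those with acid and 7.14% of those without. Of the 7681 gained sites 5605 (73.0%) had a peak in more LPS than control samples, 1863 in equally many and 213 in fewer. A further breakdown gave 1396 with no peak in any LPS or control sample and 463 with a peak in all 3 controls, as at Ifitm3 and Tgtp2. Of the 618 lost sites 491 had a peak in all 3 controls, 462 had one in fewer LPS than control samples, and 11 in more.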

How the data were processed

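ATAC-seq peaks and RNA-seq gene values were used as the authors deposited them. The submitters' processing notes name BWA 0.5.9, Picard and MACS2 2.0.10 with mm10 for ATAC-seq, and HISAT and Bowtie2 for RNA; trimming, read shifting and whether peaks were called per sample beyond the 1 deposited list each are not given in the sources used here. Each peak's deposited score is the authors' value, with its scale not given, and served only to rank peaks within a list. The deposited RNA table holds expected counts, of which 6.07% were not whole and were rounded; its FPKM and TPM columns, made by the authors, were not used. RNA libraries held 18668666 to 20219895 counts; read depth behind the peaks is unknown.

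Peaks overlapping by at least 1 bp in the 12 samples were merged with pandas 2.3.3. RNA was fitted over all 10 libraries with edgeR 4.0.16 quasi-likelihood tests (TMM, minimum count 10, Benjamini-Hochberg adjustment), with DESeq2 1.42.0 as an alternative; 15959 of 16059 gene IDs matched RefSeq. In data simulated for LPS+LA against LA over 12213 genes, 47 of 50 genes changed by 1 on the log2 scale were recovered. Named genes were the 10 with most gained and most lost sites, the nearest genes of the 10 highest-scoring sites in each direction, up to 4 per list by called sites, genes of a 30-gene panel, and genes at promoter sites named after their values were seen. The comparison, lists and panel were chosen with earlier results of these data known.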

Additional observations from a re-analysis of the deposited data

Results flagged for a closer look

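In RNA, the LPS effect differed with and without lactic acid for 24 of the 29 panel genes tested (edgeR interaction, adjusted p under 0.05). Of these differences 22 were negative and 2 positive. Over all 12213 genes tested, 23.9% were negative and 20.4% positive by the same rule. The panel was chosen with earlier results of these data known, so its count is no independent result. Differences are the log2 LPS effect with acid minus that without. They were -9.0 for Il1a, -2.92 for Ccl5, -1.69 for Sod2, -4.28 for Tnf, -6.42 for Il1b, -8.70 for Il6, -8.83 for Il12b and -4.43 for Cxcl9. They were -3.06 for Cxcl10, -0.69 for Ccl2, -3.41 for Csf1, -9.88 for Nos2, -7.21 for Ptgs2, -0.65 for Myc, -1.45 for Irf1 and -2.44 for Socs3. They were -1.98 for Tnfaip3, -1.80 for Nfkbiz, -4.44 for Cd40, -1.57 for Icam1, -0.45 for Slc16a3 and -0.27 for Ldha. Vegfa, at 1.46, and Fosb, at 1.88, differed the other way, with a smaller fall in the presence of acid. At Myc the negative difference was a larger fall, with a log2 LPS effect of -1.02 with acid and -0.37 without. Where a group is near 0 CPM, as Il6 is with LA, the size depends on the prior count.

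At 16 sites, 0.208% of the gained ones, a peak was gained with LPS among acid samples and lost with LPS among samples without acid. Spi1, Abl2 and Rbm47 were among the nearest genes. At 2 sites, in Arl5c and Cnnm2 and 0.324% of the lost ones, the reverse held. These calls rest on whether a peak was present, and some peaks were weak. At the Spi1 site the LPS+LA samples scored 4.51, 6.41 and 10.0, with a lowest percentile of 2.89 within a sample. The control samples scored 8.14, 3.25 and 11.2 there. The difference was not tested.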

How the results depend on the processing

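Gained sites numbered 3672 with 60000 peaks a sample, 4597 with peaks at or above the median score, 14198 with at least 2 of 3 samples, 4465 with 76680 peaks (added after seeing the data), and 8335 to 12867 without each replicate. Lost sites numbered 2211, 502, 1603 and 2342 in the same settings, and 695 to 1094 without each replicate. Gained exceeded lost in all of these. Genes that rose numbered 1660 to 1854 without each library, and genes that fell 1333 to 1561, or 4260 with total-count scaling; DESeq2 gave 1908 and 1380. The labels number the RNA replicates. Deviations of same-numbered LPS+LA and LA libraries correlated at -0.00327, so no shared replicate effect was seen. With 2 libraries a group this cannot show whether same-numbered libraries came from the same culture or mouse. With the replicate block 1925 genes rose and 1762 fell.

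The share of genes near gained sites that rose, 21.4%, was 27.5% within 10 kb, 19.2% within 100 kb, 25.8% with 60000 peaks, 24.6% above the median score, 19.0% with 2 of 3 samples, 24.0% with 76680 peaks, 14.8% with total-count scaling, 19.6% with 4 libraries, 19.3% to 21.1% without each ATAC-seq replicate and 18.5% to 20.8% without each RNA library (19.4% without LPS+LA library 1). The share near lost sites that fell, 18.2%, was 20.8% within 10 kb, 39.8% with total-count scaling, 16.9% to 18.4% without each ATAC-seq replicate and 14.6% to 18.4% without each RNA library. Of gained sites, 45.0% were shared with LPS against control: 73.0% when more LPS than control samples sufficed, 52.5% with 60000 peaks, 47.2% above the median score, 40.3% when peaks had to cover at least 50% of the site, 43.6% with 2 of 3 samples, 51.0% with 76680 peaks, and 36.0% to 42.8% without each replicate. For lost sites, 36.1% became 74.8%, 41.9%, 43.8% and 41.0% in the first 3 and the 76680-peak settings, and 27.4% to 34.4% without each replicate. The causes were not tested.

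Among 62 genes whose RNA is given, direction reversed in 10 gene and setting pairs, and of these genes D17H6S56E-5 alone had passed the test. With total-count scaling the log2 differences became -0.11 for Clic1, -0.02 for D17H6S56E-5, -0.16 for Ldha, -0.10 for Slc16a3, -0.04 for Snd1 and -0.11 for Spidr. Without each library in turn they ran from -0.26 to 0.07 for Cdk14, -0.16 to 0.41 for Spidr, -0.09 to 0.00 for Spred2 and -1.31 to 0.21 for Vwa7. A call was lost in another 6 pairs and made in 6. Read depth behind the peaks is unknown, which limits what a missing peak shows.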
